A study of Mus musculus with 8 samples.

Results

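The 37 genes described here encode the enzymes and transporters of glycolysis and the genes that cells switch on when oxygen falls. They were listed by name, with earlier results of these data known, and all 37 were found among the 47937 gene IDs of the count tables. In bone marrow-derived dendritic cells (BMDCs) labelled as a triple knockout of G-protein coupled receptor kinases, 28 of the 36 testable genes were higher than in WT cells after LPS (24.7% of all genes were), with the largest differences in the hexokinase gene *Hk3* (9.12-fold), the low-count genes *Ankrd37* (7.53-fold) and *Ak4* (5.70-fold), and *Vegfa* (4.76-fold). The glucose transporter gene *Slc2a3* was 14.3-fold lower. Without LPS, 18 of 36 were higher and 9 were lower (22.1% and 22.7% of all genes).

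RNA-seq had been performed on BMDCs of 2 genotypes, either unstimulated or stimulated with LPS, with 2 libraries in each of the 4 groups. BMDCs are the mixed myeloid cells that grow out of mouse bone marrow in GM-CSF (20 ng/ml, 8 days); LPS, a bacterial cell wall component that matures dendritic cells, was given at 20 ng/ml for 24 h in medium that still held GM-CSF. Cells labelled Grk 3xKO are called 3x*Grk*-/- in what follows. The labels name no Cre; in the study's text, 3x*Grk*-/- BMDCs are those of mice with floxed *Grk2* and *Grk6* (fl/fl), a *Vav*-iCre transgene and a *Grk3*-/- deletion, in which Cre is active from early blood cell precursors on. WT controls were Cre-negative mice matched for age and sex. All mice were C57BL6/J in background and older than 8 weeks. The methods give technical triplicates for the RNA, and nothing in the labels assigns the 2 libraries of a group to separate cultures or animals, so the p-values measure the spread between libraries, which may be technical.

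Glycolysis breaks glucose down to pyruvate in the cytosol and needs no oxygen; lactate dehydrogenase then turns pyruvate into lactate, which monocarboxylate transporters carry out of the cell. Myeloid cells activated through toll-like receptors are known to draw heavily on this pathway. When oxygen is scarce, or in inflammatory signalling, the transcription factor subunit HIF-1α escapes the prolyl hydroxylases that mark it for degradation, and binds to short DNA motifs with the core ACGTG or GCGTG near many of these genes.

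Between 4713305 and 6933358 reads were counted per library, with a median of 6228400. Replicate 2 of the LPS-stimulated 3x*Grk*-/- group stood apart in *Gm42418*, which took 2.16% of its counts against 0.273% to 0.638% in the other 7 libraries. The mean chi-square per gene between the 2 libraries of a group, which includes *Gm42418*, was highest in that group (9.02, against 1.59 to 3.07). The median chi-square, as a ratio to its expected value, was 1.3 in that group and highest, at 1.92, in LPS-stimulated WT. Over the members the mean was 1.88 in that group and highest, at 3.24, in LPS-stimulated WT. Fits were also made without replicate 2 of the LPS-stimulated 3x*Grk*-/- group. Without that library, 26 members were higher and 3 lower in 3x*Grk*-/- with LPS, 18 rose and 8 fell with LPS in 3x*Grk*-/-, and 21 interactions were positive and 2 negative. The targeted genes were lower in 3x*Grk*-/- cells, *Grk2* at 0.464 and 0.271, *Grk3* at 0.781 and 0.750 and *Grk6* at 0.438 and 0.345 of the WT level without and with LPS. These are counts over whole genes, which do not show the deleted exons, and *Grk3* remained at 263 to 343 CPM in 3x*Grk*-/- libraries. Cell type markers differed widely between the groups. The summed level of 13 macrophage markers was 2382 to 2405 CPM (a gene's share of the library's counts, put on a common scale with TMM factors) in unstimulated WT, 8764 to 8811 in unstimulated 3x*Grk*-/-, 705 to 723 in LPS-stimulated WT and 7668 to 7772 in LPS-stimulated 3x*Grk*-/- libraries. Of the 13, 8 were higher and 4 lower in 3x*Grk*-/- without LPS, and all 13 were higher with LPS. The sum of 12 conventional DC markers was 26533 to 26763, 14053 to 14325, 18213 to 19838 and 15292 to 15614 CPM in the same order; 7 were lower and 4 higher (*Flt3*, *Irf8*, *Itgax* and *Ccr7*) in 3x*Grk*-/- without LPS, and 10 lower and 2 higher (*Flt3* and *Itgax*) with LPS. That of 8 eosinophil markers was 1257 to 1330, 67.0 to 74.5, 1150 to 1251 and 82.9 to 88.9 CPM. Neutrophil markers (12) summed to 849 to 895, 1287 to 1320, 380 to 436 and 576 to 604 CPM, with 1 higher and 7 lower in 3x*Grk*-/- without LPS and 2 higher and 7 lower of 11 with LPS. Cycling cell markers summed to 834 to 835, 232 to 240, 168 to 179 and 159 to 160 CPM. Of the stromal markers, *Dcn* reached 113 to 127 CPM in LPS-stimulated 3x*Grk*-/- libraries and at most 2.36 CPM elsewhere. In bulk RNA, fewer cells of a type and less RNA per cell cannot be told apart.

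The promoters of these genes often held the HIF core. The genes were listed by name for glycolysis and the response to low oxygen, so these shares describe the list and not the libraries. In windows from 250 bases before to 50 bases after the start of each gene (RefSeq, GRCm38.p6, the most upstream start of each gene), ACGTG was found on either strand in 21 of 35 members (60%), against 19.6% of the 27025 genes in the table and 25.8% of the 9419 other genes tested. GCGTG was found in 20 of 35 members (57.1%), against 32.5% and 51.5%; either core was present in 28 (80.0%), against 43.8% and 63.1%. The members' windows were also richer in G and C, with a median of 65.0% against 52.7% and 60.7%. Of the members that were higher with LPS, 18 of 28 held ACGTG (64.3%), as did 3 of the other 7 (42.9%), and GCGTG was held by 57.1% of both. Among the other 7, *Pfkp* was lower with LPS and *P4ha2* was not tested, while *Slc2a6*, *Hk1*, *Pfkm*, *Aldoc* and *Eno2* did not pass. The mean number of either core in a window was 2.11 in the 28 and 2.57 in the other 7. The 7 windows without either core were those of *Hk1*, *Gpi1*, *Aldoa*, *Tpi1*, *Eno2*, *Pkm* and *Vegfa*, which says only that these letters were not in these windows; *Slc2a3* and *Ndrg1* had no window. The following 5 promoters belong to genes on which the results turn, the first pair to the steps that bring glucose into the pathway, the next pair to the release of lactate, and the last to a hypoxia-induced gene. Capitals mark ACGTG and GCGTG read on either strand. Where ACGTG is read on both strands of the same overlapping bases, it counts as 2. The window of *Slc2a1* (chr4:119108495-119108794, plus strand) held 1 ACGTG and 1 GCGTG. That of *Hk3* (chr13:55021336-55021635, minus strand) held 1 ACGTG. That of *Ldha* (chr7:46845554-46845853, plus strand) held 5 ACGTG and 2 GCGTG, the highest number of any member. That of *Slc16a3* (chr11:120948817-120949116, plus strand) held 2 ACGTG, and that of *Ankrd37* (chr8:45999801-46000100, minus strand) 2 of each. The GENCODE gene begins further upstream than the RefSeq start used here for *Slc2a1*, within the window, and for *Ldha*, *Slc16a3* and *Ankrd37*, beyond it.
Slc2a1: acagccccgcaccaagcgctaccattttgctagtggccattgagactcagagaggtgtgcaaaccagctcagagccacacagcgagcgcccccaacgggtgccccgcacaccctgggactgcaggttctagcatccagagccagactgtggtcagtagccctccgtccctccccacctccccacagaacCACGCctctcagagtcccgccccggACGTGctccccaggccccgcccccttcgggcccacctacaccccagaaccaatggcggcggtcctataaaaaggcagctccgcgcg
Hk3: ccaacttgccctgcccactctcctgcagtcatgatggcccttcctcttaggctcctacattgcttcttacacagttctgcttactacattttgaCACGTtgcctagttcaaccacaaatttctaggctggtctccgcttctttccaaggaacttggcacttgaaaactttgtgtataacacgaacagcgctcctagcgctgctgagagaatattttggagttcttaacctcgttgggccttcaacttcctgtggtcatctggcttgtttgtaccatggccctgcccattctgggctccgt
Ldha: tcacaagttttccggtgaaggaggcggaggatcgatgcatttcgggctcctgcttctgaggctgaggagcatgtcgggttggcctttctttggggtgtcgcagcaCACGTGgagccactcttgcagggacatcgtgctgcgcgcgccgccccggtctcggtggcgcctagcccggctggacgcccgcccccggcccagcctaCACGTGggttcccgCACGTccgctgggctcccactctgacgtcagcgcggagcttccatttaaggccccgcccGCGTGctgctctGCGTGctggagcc
Slc16a3: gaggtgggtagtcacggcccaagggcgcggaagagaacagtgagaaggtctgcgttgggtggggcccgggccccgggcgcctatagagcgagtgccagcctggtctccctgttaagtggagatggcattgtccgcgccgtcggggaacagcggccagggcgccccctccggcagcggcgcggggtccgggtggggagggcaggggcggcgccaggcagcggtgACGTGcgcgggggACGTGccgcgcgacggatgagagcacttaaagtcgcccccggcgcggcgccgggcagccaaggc
Ankrd37: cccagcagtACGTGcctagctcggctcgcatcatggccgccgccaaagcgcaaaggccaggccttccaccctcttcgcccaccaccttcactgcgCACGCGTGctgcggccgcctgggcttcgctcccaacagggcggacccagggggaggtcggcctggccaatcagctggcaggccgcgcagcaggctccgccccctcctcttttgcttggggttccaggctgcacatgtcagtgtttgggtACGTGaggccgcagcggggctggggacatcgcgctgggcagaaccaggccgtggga

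To ask how the genotypes differed, 3x*Grk*-/- libraries were compared with WT libraries without and with LPS by edgeR's quasi-likelihood test on all genes, with Benjamini-Hochberg adjusted p under 0.05 as the threshold. Without LPS, 27 of 36 members passed, against 44.7% of all genes; 18 were higher in 3x*Grk*-/- (50% of those tested, where 22.1% of all genes were), 9 were lower (25%, against 22.7%), and 9 did not pass; the median log2 fold change was 0.167, against -0.002 over all genes. With LPS 31 passed, against 48.6% of all genes; 28 were higher (77.8%, against 24.7% of all genes), 3 were lower (8.33%, against 24%) and 5 did not pass, with a median of 0.843 against -0.007. Among called members, 4 differed by a log2 value of 1 or more in either direction without LPS and 18 with it (12% and 16.8% of all genes). The 4 were *Slc2a1*, *Slc2a3*, *Hk3* and *Ak4*. Under both conditions 18 members were higher (50%, against 12.4% of the 11350 genes tested in both), while 4 went from lower without LPS to higher with it (11.1%, against 2.39%), namely *Pfkfb3*, *Ldha*, *Slc16a1* and *Ddit4*. A further 6 were higher with LPS after not passing without it (16.7%, against 9.03%). *Slc2a3*, *Pfkp* and *Ndrg1* were lower under both (8.33%, against 10.5%). WT and 3x*Grk*-/- libraries did not overlap in 31 members without LPS and in 33 with it (69.1% and 72.6% of all genes). With 2 libraries a group, an exact permutation test of a single gene cannot go below p = 0.333. These calls rest on the spread estimated across genes, a common coefficient of variation of 0.0306 without and 0.0573 with LPS. At a coefficient of 0.4 for every gene, 448 of 12000 genes were called without LPS and 782 of 11830 with it. Of the members, 0 stayed higher without LPS (3 at an unadjusted p under 0.05) and 5 with LPS. Those 5 were *Slc2a1*, *Hk3*, *Vegfa*, *Ak4* and *Ankrd37*, and *Slc2a3* stayed lower under both conditions. DESeq2 called 15 higher and 7 lower without LPS, and 27 and 3 with it, where it called 2831 of 13412 and 3663 of 13379 genes in all. All 37 genes together took 0.810% of the counts in both unstimulated WT libraries, 0.878% and 0.897% in unstimulated 3x*Grk*-/-, 0.654% and 0.687% in LPS-stimulated WT and 0.889% and 0.913% in LPS-stimulated 3x*Grk*-/- libraries.

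**Figure D1:**
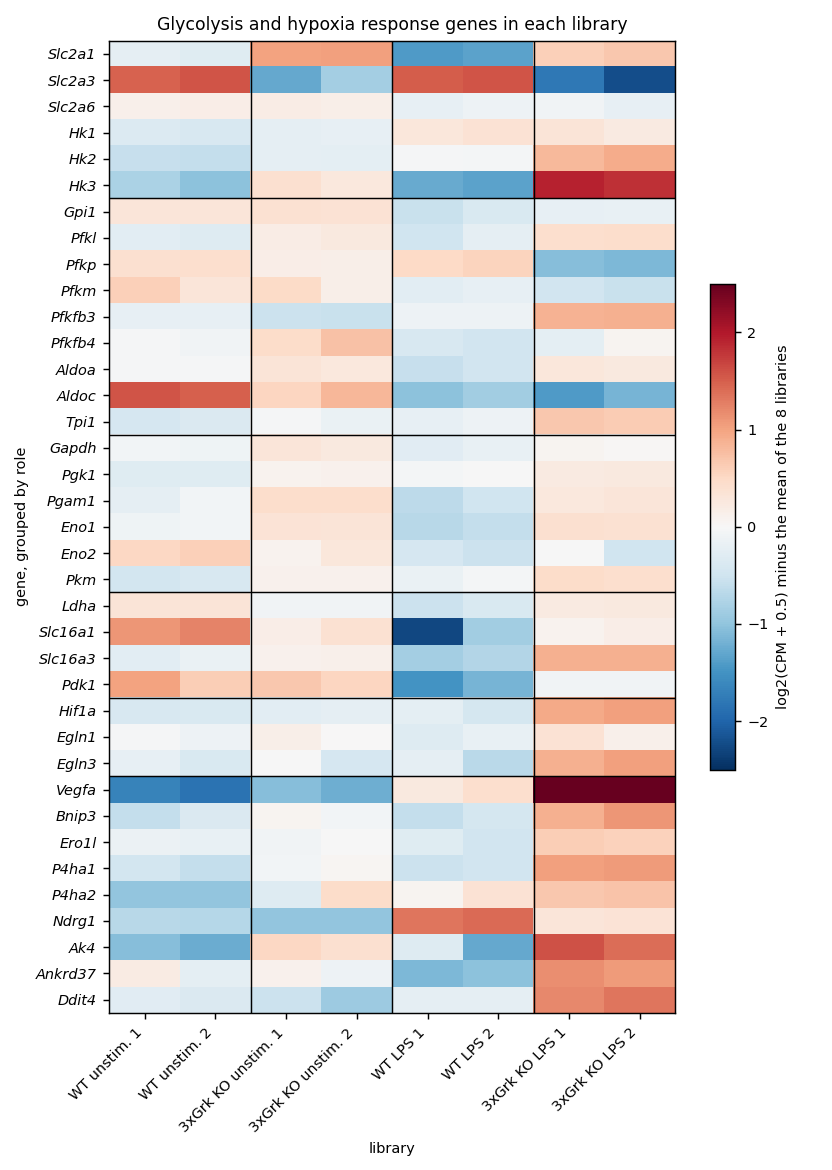
Level of each of the 37 genes (rows, grouped by role) in each of the 8 libraries (columns), as log2(CPM + 0.5) minus the gene's mean over the libraries; red is above and blue below that mean, and the colours end at 2.5. Most rows of the lower part, from *Ldha* down, are reddest in the 2 LPS-stimulated 3xGrk KO columns, while *Slc2a3* and *Pfkp* are bluest there.

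**Figure D2:**
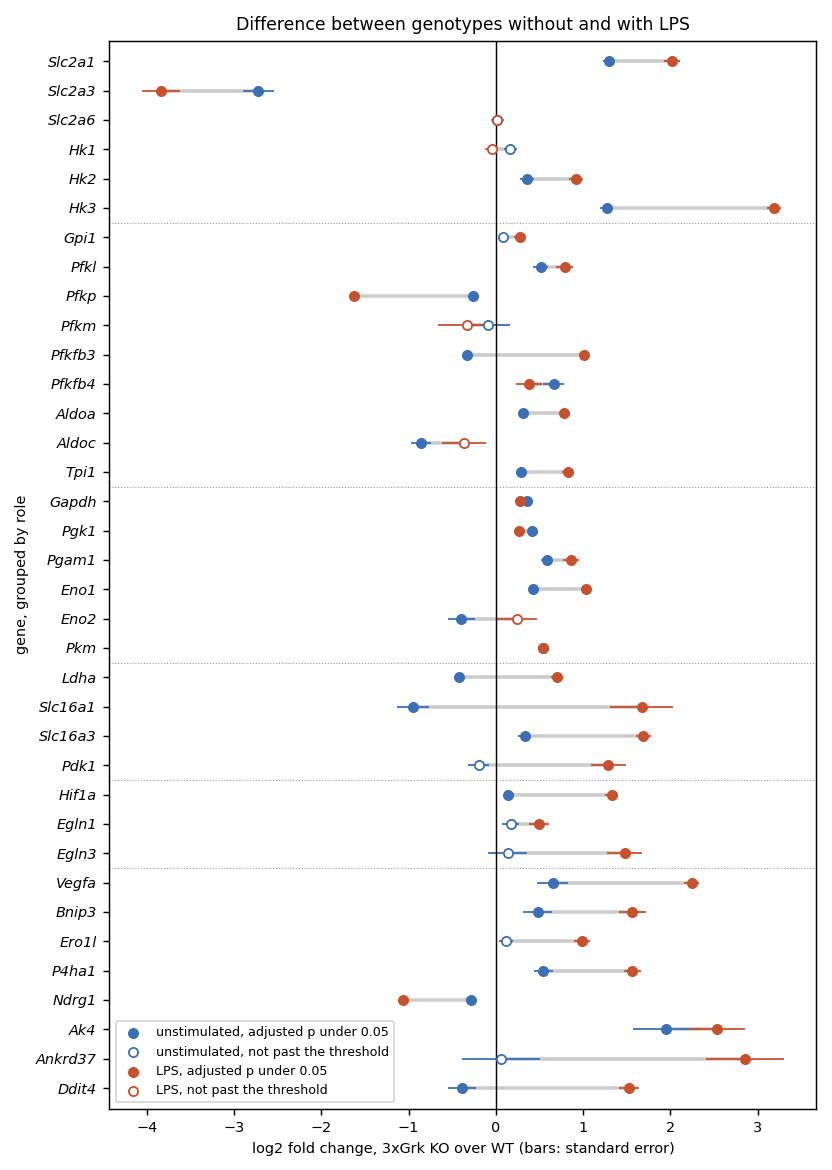
Log2 fold change of 3xGrk KO over WT (x axis, bars show the standard error) for the 36 tested genes, without LPS in blue and with LPS in orange; filled circles passed an adjusted p under 0.05. The orange circle lies to the right of the blue for most genes, and *Pfkfb3*, *Ldha*, *Slc16a1* and *Ddit4* have filled circles on both sides of 0.

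Glucose entry and its trapping by phosphorylation showed the widest range. *Slc2a1*, which encodes the basal glucose transporter GLUT1, had 75.5 and 72.0 CPM in WT and 180.0 and 180.4 CPM in 3x*Grk*-/- libraries without LPS, and 33.0 and 34.8 CPM against 134 and 141 CPM with LPS. Both 3x*Grk*-/- libraries were above both WT libraries under each condition. The difference was 2.44-fold without LPS (log2 1.29 ± 0.06 SE, edgeR adjusted p = 1e-97) and 4.06-fold with LPS (log2 2.02 ± 0.09, edgeR adjusted p = 5.3e-14). *Slc2a3*, which encodes the high-affinity transporter GLUT3, went the other way, with 26.9 and 29.2 CPM in unstimulated WT against 3.59 and 5.04 CPM in 3x*Grk*-/- libraries, and 27.9 and 28.9 CPM against 2.36 and 1.62 CPM with LPS. Every 3x*Grk*-/- library was far below every WT library, 6.5-fold without LPS (log2 -2.72 ± 0.18, edgeR adjusted p = 8.76e-49) and 14.3-fold with LPS (log2 -3.84 ± 0.22, edgeR adjusted p = 5.53e-12). The eosinophil markers given above were likewise lower in 3x*Grk*-/- under both conditions (7 of 8 without LPS, with *Siglecf* not passing, and 8 of 8 with LPS) and 1 of them, *Il5ra*, was at 0 in 1 LPS-stimulated 3x*Grk*-/- library; their part in the *Slc2a3* result was not tested. *Slc2a6*, which encodes a transporter found on lysosomes, did not pass under either condition, with log2 values of 0.02 ± 0.06 and 0.02 ± 0.08.

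Hexokinases trap glucose in the cell as glucose 6-phosphate. *Hk3*, whose product is a hexokinase abundant in myeloid cells, had 52.7 and 45 CPM in WT and 122 and 110.1 CPM in 3x*Grk*-/- libraries without LPS, and with LPS 38.3 and 36.4 CPM against 352 and 329 CPM. The genotypes did not overlap, and the LPS-stimulated 3x*Grk*-/- libraries were the highest of all 8. The difference was 2.38-fold without LPS (log2 1.27 ± 0.07) and 9.12-fold with it (log2 3.19 ± 0.08, edgeR adjusted p = 3.27e-18). The summed macrophage markers given above were likewise higher in 3x*Grk*-/- under both conditions and lower with LPS in WT. Of the 13 markers, 8 were higher and 4 lower in 3x*Grk*-/- without LPS, and 10 fell and 3 rose with LPS in WT. With LPS in 3x*Grk*-/- cells, where *Hk3* rose 2.93-fold, 5 of the 13 markers rose, 4 fell and 4 did not pass, and the sums are those given above. Their part in the *Hk3* result was not tested. *Hk2*, the hexokinase gene best known as a HIF target, was higher by log2 0.36 ± 0.08 without and 0.92 ± 0.08 with LPS, and *Hk1*, the housekeeping form, passed under neither (0.16 ± 0.07 and -0.05 ± 0.08).

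**Figure D3:**
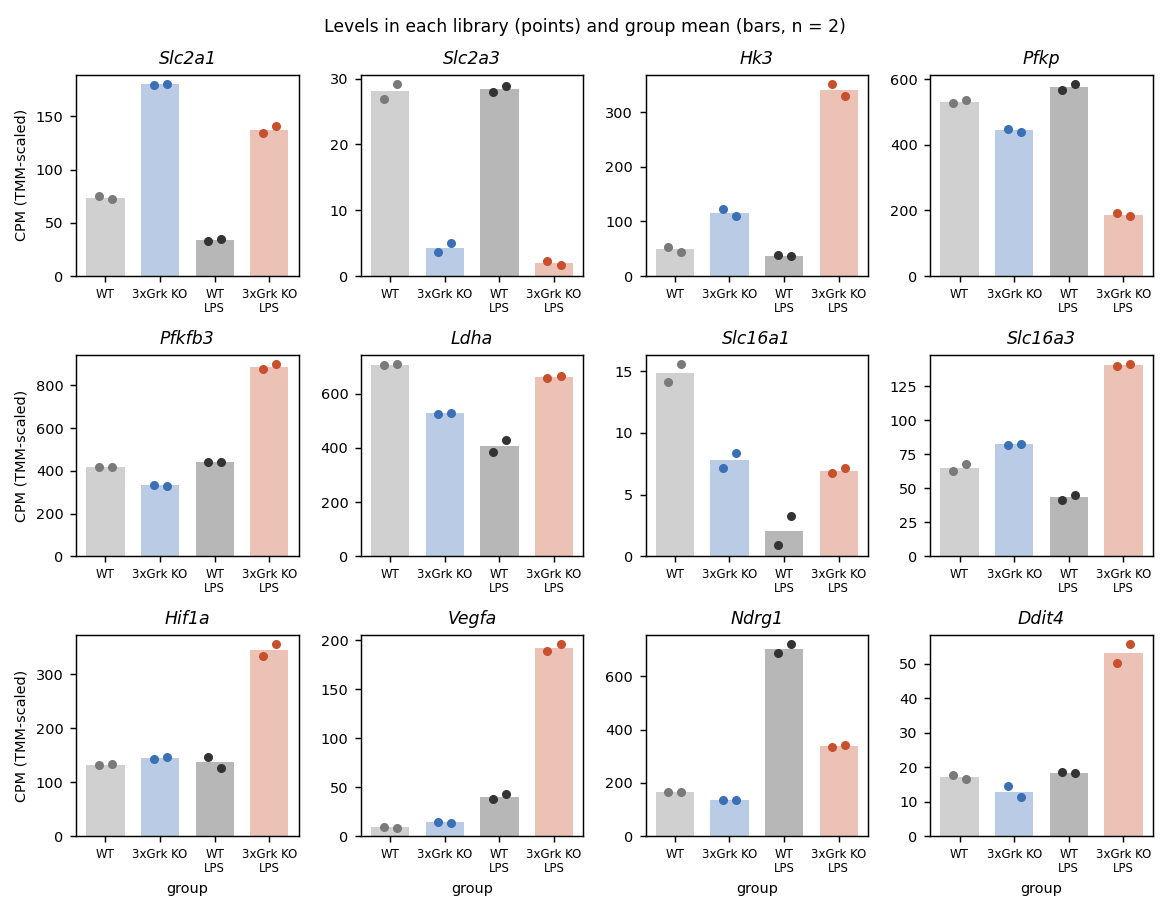
CPM (y axis, from 0, with its own scale in each panel) of 12 genes in the 8 libraries; points are libraries and bars the mean of the 2 libraries of each group. *Slc2a1*, *Hk3*, *Slc16a3*, *Hif1a* and *Vegfa* are higher in 3xGrk KO than in WT with LPS, and *Slc2a3*, *Pfkp* and *Ndrg1* are lower. In *Ldha*, *Pfkfb3*, *Slc16a1* and *Ddit4* the order of the genotypes turns round with LPS, to higher in 3xGrk KO.

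In the upper part of glycolysis, the phosphofructokinase genes differed from each other. *Pfkp*, the platelet-type subunit of the enzyme that commits sugar to glycolysis, had 527 and 535 CPM in WT and 447 and 440.4 CPM in 3x*Grk*-/- libraries without LPS, and with LPS 566 and 585 CPM against 192 and 183 CPM. It was lower in both 3x*Grk*-/- libraries each time, 1.20-fold without and 3.07-fold with LPS (log2 -0.26 ± 0.04 and -1.62 ± 0.06, edgeR adjusted p = 3.31e-10 and 4.45e-15). *Pfkl*, the liver-type subunit, was instead higher by log2 0.52 ± 0.08 and 0.79 ± 0.10, and *Pfkm*, the muscle type, passed under neither condition. *Pfkm* overlaps *Senp1* on the other strand, which had 2763 counts in all libraries together against 205. *Pfkfb3*, whose product makes fructose 2,6-bisphosphate, the strongest activator of phosphofructokinase, had 417 and 416 CPM in WT and 333 and 330.1 CPM in 3x*Grk*-/- libraries without LPS. With LPS it had 444 and 439.6 CPM in WT and 877 and 899 CPM in 3x*Grk*-/- libraries. So it was 1.26-fold lower in 3x*Grk*-/- cells without LPS (log2 -0.33 ± 0.04, edgeR adjusted p = 3.56e-14) and 2.01-fold higher with LPS (log2 1.01 ± 0.06, edgeR adjusted p = 3.63e-12), with no overlap either way. *Pfkfb4*, a related enzyme, had 22.5 and 21.4 CPM against 31.6 and 38.4 CPM without LPS, an increase of log2 0.66 ± 0.12 (edgeR adjusted p = 1.39e-07). With LPS it was higher by 0.38 ± 0.15, a call that was lost without replicate 2 of either group (0.22 to 0.35, edgeR adjusted p = 0.117 to 0.417).

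Downstream of phosphofructokinase, *Aldoa* and *Tpi1*, which encode the main aldolase and triosephosphate isomerase, were higher in 3x*Grk*-/- cells by log2 0.32 and 0.29 without and 0.78 and 0.82 with LPS. *Aldoc*, a minor aldolase gene, had 40.9 and 38.5 CPM against 19.7 and 24.3 CPM without LPS, a fall of log2 -0.85 ± 0.12 (edgeR adjusted p = 1.32e-12). With LPS it was at 4.73 to 7.12 CPM in all 4 libraries and did not pass. *Gpi1*, which encodes glucose 6-phosphate isomerase, passed only with LPS (0.28 ± 0.06).

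The lower part of glycolysis, which yields ATP and pyruvate, was higher in 3x*Grk*-/- cells almost throughout, by small amounts. *Gapdh*, *Pgk1*, *Pgam1*, *Eno1* and *Pkm* were all higher without LPS, by log2 0.36 to 0.58, and all higher with LPS, by 0.26 to 1.04. So 5 of 6 genes passed upwards each time (83.3%, against 22.1% of all genes without and 24.7% with LPS). *Pkm*, which encodes pyruvate kinase, had 844 and 876 CPM in WT libraries without LPS and 1026 and 1120 CPM with it, and 1248 and 1247 CPM in 3x*Grk*-/- libraries without LPS and 1586 and 1542 CPM with it. Its genotypes never overlapped, with log2 fold changes of 0.54 ± 0.03 without and 0.54 ± 0.06 with LPS, and the *Pkm* interaction was 0.01 ± 0.07 (edgeR adjusted p = 0.943). *Pgam1*, which encodes phosphoglycerate mutase, had 62.3 and 69.0 CPM in WT and 98.7 and 99.3 CPM in 3x*Grk*-/- libraries without LPS (1.51-fold, log2 0.58 ± 0.07, edgeR adjusted p = 4.36e-15). *Gapdh*, often used as a reference gene, was 1.28-fold and 1.22-fold higher in 3x*Grk*-/- cells without and with LPS, at 1218 to 1241 against 1543 to 1611 CPM and 1066 to 1154 against 1331 to 1370 CPM. The *Pgk1* call with LPS was lost without replicate 2 of the LPS-stimulated 3x*Grk*-/- group (0.26, edgeR adjusted p = 0.0535). *Eno2*, the neuron-type enolase gene, was lower without LPS (-0.39 ± 0.16), a call lost without either WT library or without replicate 1 of 3x*Grk*-/- (edgeR adjusted p = 0.0502 to 0.286), and did not pass with LPS.

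The genes for the fate of pyruvate turned most sharply with LPS. In 3x*Grk*-/- cells without LPS, 2 of 4 were lower and 1 higher (22.7% and 22.1% of all genes were). With LPS all 4 were higher (24.7% of all genes were). *Ldha*, which encodes the lactate dehydrogenase subunit that favours lactate formation, and whose promoter is printed above, had 705 and 709 CPM in WT and 527 and 529 CPM in 3x*Grk*-/- libraries without LPS, but 386 and 430.3 CPM against 657 and 666 CPM with LPS. It was 1.34-fold lower and then 1.62-fold higher in 3x*Grk*-/- (log2 -0.42 ± 0.04 and 0.70 ± 0.06, edgeR adjusted p = 5.63e-28 and 5.52e-09). *Slc16a1*, which encodes the lactate carrier MCT1, had 14.1 and 15.6 CPM against 7.18 and 8.34 CPM without LPS, and 0.907 and 3.25 CPM against 6.73 and 7.13 CPM with LPS, the WT values resting on 5 and 21 counts. The genotypes did not overlap, and the log2 fold changes were -0.95 ± 0.18 and 1.67 ± 0.36 (edgeR adjusted p = 9.93e-07 and 0.000549). *Slc16a3*, which encodes MCT4, the carrier best suited to exporting lactate, had 63.0 and 67.6 CPM against 81.8 and 83.0 CPM without LPS. With LPS it had 41.7 and 45.3 CPM in WT and 140.0 and 141 CPM in 3x*Grk*-/- libraries, a 3.23-fold difference (log2 1.69 ± 0.08, edgeR adjusted p = 4.31e-13). *Pdk1*, whose product keeps pyruvate out of mitochondria by inhibiting pyruvate dehydrogenase, did not pass without LPS (-0.20 ± 0.12) and was 2.47-fold higher with it (1.29 ± 0.20). Cycling cell markers were highest in the same unstimulated WT libraries as *Ldha* and *Slc16a1* (all 8 markers lower in 3x*Grk*-/- without LPS, 5 of 8 with LPS, and none at 0 in any library), and their part in these results was not tested.

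*Hif1a* itself, which encodes the oxygen-regulated HIF subunit, had 131 and 134 CPM in WT libraries without LPS and 147 and 127 CPM with it, and 144 and 147 CPM in 3x*Grk*-/- libraries without LPS and 333 and 355 CPM with it. The LPS-stimulated 3x*Grk*-/- libraries stood above the other 6. The difference with LPS was 2.51-fold (log2 1.33 ± 0.07, edgeR adjusted p = 2.34e-12). The small *Hif1a* difference without LPS (0.13 ± 0.06, edgeR adjusted p = 0.0397) was lost on leaving out any 1 library (edgeR adjusted p = 0.0716 to 0.181). *Egln1* and *Egln3*, which encode the prolyl hydroxylases that mark HIF-1α for degradation, did not pass without LPS and were higher with it, by log2 0.49 ± 0.11 and 1.47 ± 0.20. For *Egln3*, itself known as a HIF target, the values with LPS were 7.44 and 5.26 CPM in WT and 16.5 and 18.3 CPM in 3x*Grk*-/- libraries. No protein was measured here, and HIF-1α is known to be controlled mainly at that level.

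Of the 8 other hypoxia-induced genes that could be tested, 7 were higher in 3x*Grk*-/- cells with LPS (87.5%, against 24.7% of all genes). The median over the 8 with LPS was log2 1.56. Without LPS 4 were higher (50%, against 22.1% of all genes). *Vegfa*, the gene of the vascular growth factor, had 9.74 and 8.55 CPM in WT and 15.0 and 13.4 CPM in 3x*Grk*-/- libraries without LPS, and with LPS 37.7 and 43.2 CPM against 189 and 196 CPM. Groups did not overlap, and the difference was 1.55-fold without (log2 0.65 ± 0.18, edgeR adjusted p = 0.000934, 0.161 with DESeq2) and 4.76-fold with LPS (log2 2.24 ± 0.08, edgeR adjusted p = 3.25e-15). *P4ha1*, which encodes a collagen prolyl hydroxylase, had 30 and 27.2 CPM against 39.8 and 43.2 CPM without LPS and 28.5 and 29.9 CPM against 85.4 and 87.2 CPM with LPS, so that it was 1.45-fold and 2.96-fold higher. *Bnip3*, whose product marks mitochondria for removal, had 9.93 and 11.9 CPM against 16.2 and 14.6 CPM without LPS and 9.98 and 11.1 CPM against 28.9 and 33.7 CPM with LPS (2.97-fold, log2 1.57 ± 0.15, edgeR adjusted p = 2.46e-08). The *Bnip3* call without LPS was lost without replicate 1 of either genotype (0.37 to 0.40, edgeR adjusted p = 0.107 to 0.129). *Ddit4*, which encodes the mTORC1 inhibitor REDD1, had 17.8 and 16.7 CPM against 14.7 and 11.3 CPM without and 18.5 and 18.4 CPM against 50.4 and 55.6 CPM with LPS. With LPS *Ddit4* was 2.87-fold higher in 3x*Grk*-/- (log2 1.52 ± 0.12, edgeR adjusted p = 6.13e-10), and without it lower (-0.39 ± 0.16). The latter call was lost in DESeq2 (adjusted p = 0.443) and in 3 of the 4 fits that left out a library (edgeR adjusted p = 0.0633 to 0.363; *Ddit4* kept the call only without replicate 1 of 3x*Grk*-/-). *Ero1l*, an oxidase of protein folding in the endoplasmic reticulum, was higher only with LPS (1.98-fold). *Ak4*, a mitochondrial adenylate kinase gene, had 7 and 8 counts in unstimulated WT libraries and 33 and 26 in 3x*Grk*-/-, and 14 and 7 against 61 and 59 with LPS; it was higher by log2 1.95 ± 0.38 and 2.54 ± 0.32. *Ankrd37*, a small HIF-induced gene whose promoter is printed above, had 3 and 4 counts in LPS-stimulated WT and 25 and 26 in 3x*Grk*-/- libraries (log2 2.86 ± 0.45, edgeR adjusted p = 1.4e-05), and 9 to 13 in the 4 unstimulated libraries. *Ufsp2* on the other strand overlaps it and had 1200 counts in all, against 101. The exception was *Ndrg1*, a gene induced by hypoxia and differentiation. It had 166 and 165 CPM against 136 and 135 CPM without LPS, and 687 and 719 CPM against 333 and 342 CPM with LPS, so that 3x*Grk*-/- libraries were lower under both conditions (log2 -0.29 ± 0.05 and -1.06 ± 0.06). *P4ha2*, the paralog of *P4ha1*, was not tested, with 0 counts in both unstimulated WT libraries and 2 to 7 in the other 6.

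The response to LPS itself was then compared between the genotypes in a fit of all 8 libraries. In WT cells 26 members passed (60.3% of all genes) and in 3x*Grk*-/- cells 31 (55.4%), while the libraries did not overlap in 29 and 34 (78.2% and 77.6% of all genes). In WT cells 8 members rose (22.2%, where 29.5% of all genes did) and 18 fell (50%, against 30.8%); in 3x*Grk*-/- cells 20 rose (55.6%, against 28.0%) and 11 fell (30.6%, against 27.4%). The median log2 response was -0.159 in WT and 0.272 in 3x*Grk*-/-, against -0.015 and -0.007 over all genes. Scaling by library size alone shifts the median of all genes in these responses to -0.23 and -0.226, and the number of members that rose in WT from 8 to 4. On that scale *Pfkfb3* (-0.13, edgeR adjusted p = 0.023) and *Hif1a* (-0.17, edgeR adjusted p = 0.0309) fell in WT and *Eno1* (-0.16, edgeR adjusted p = 0.00496) fell in 3x*Grk*-/-, where none of the 3 passed with TMM. Both genotypes rose in 7 members (19.4%, against 18.5% of all genes) and fell in 9 (25%, against 18.8%). The 5 members *Hk3*, *Ldha*, *Slc16a3*, *Ero1l* and *Ankrd37* fell in WT and rose in 3x*Grk*-/- (13.9%, against 2.09%). In 3x*Grk*-/- cells 8 rose without passing in WT (22.2%, against 7.40%; among them *Hif1a*, *Pfkfb3*, *P4ha1*, *Bnip3*, *Egln3* and *Ddit4*). *Pfkp* alone rose in WT and fell in 3x*Grk*-/- (2.78%, against 1.95%), the rise in WT being small (0.12 ± 0.05) and lost in 6 of the 8 fits that left out a library (edgeR adjusted p = 0.0518 to 0.191). All 4 pyruvate and lactate genes fell in WT, *Slc16a1* by 2.77, *Pdk1* by 2.19, *Ldha* by 0.79 and *Slc16a3* by 0.59 on the log2 scale. In 3x*Grk*-/- cells *Slc16a3* and *Ldha* rose by 0.77 and 0.33, *Pdk1* fell by 0.71, and *Slc16a1* had a value of -0.15 ± 0.24. All 8 tested genes of the last group rose in 3x*Grk*-/- cells, *Vegfa* 13.6-fold, *Ddit4* 4.08-fold and *Ndrg1* 2.48-fold, whereas in WT cells *Vegfa* rose 4.42-fold and *Ndrg1* 4.24-fold, *Ero1l* and *Ankrd37* fell, and 4 did not pass. The falls of *Ero1l* and *Ankrd37* in WT were each lost in 3 of 8 fits that left out a library. For *Ero1l* these were the fits without either unstimulated WT library or LPS-stimulated WT replicate 2 (-0.24 to -0.13, edgeR adjusted p = 0.0843 to 0.305). For *Ankrd37* they were those without either LPS-stimulated WT library or unstimulated WT replicate 1 (-1.60 to -1.24, edgeR adjusted p = 0.0836 to 0.139). *Aldoc* fell most among the genes that fell in both genotypes, by 2.55 in WT and by 2.06 in 3x*Grk*-/-.

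**Figure D4:**
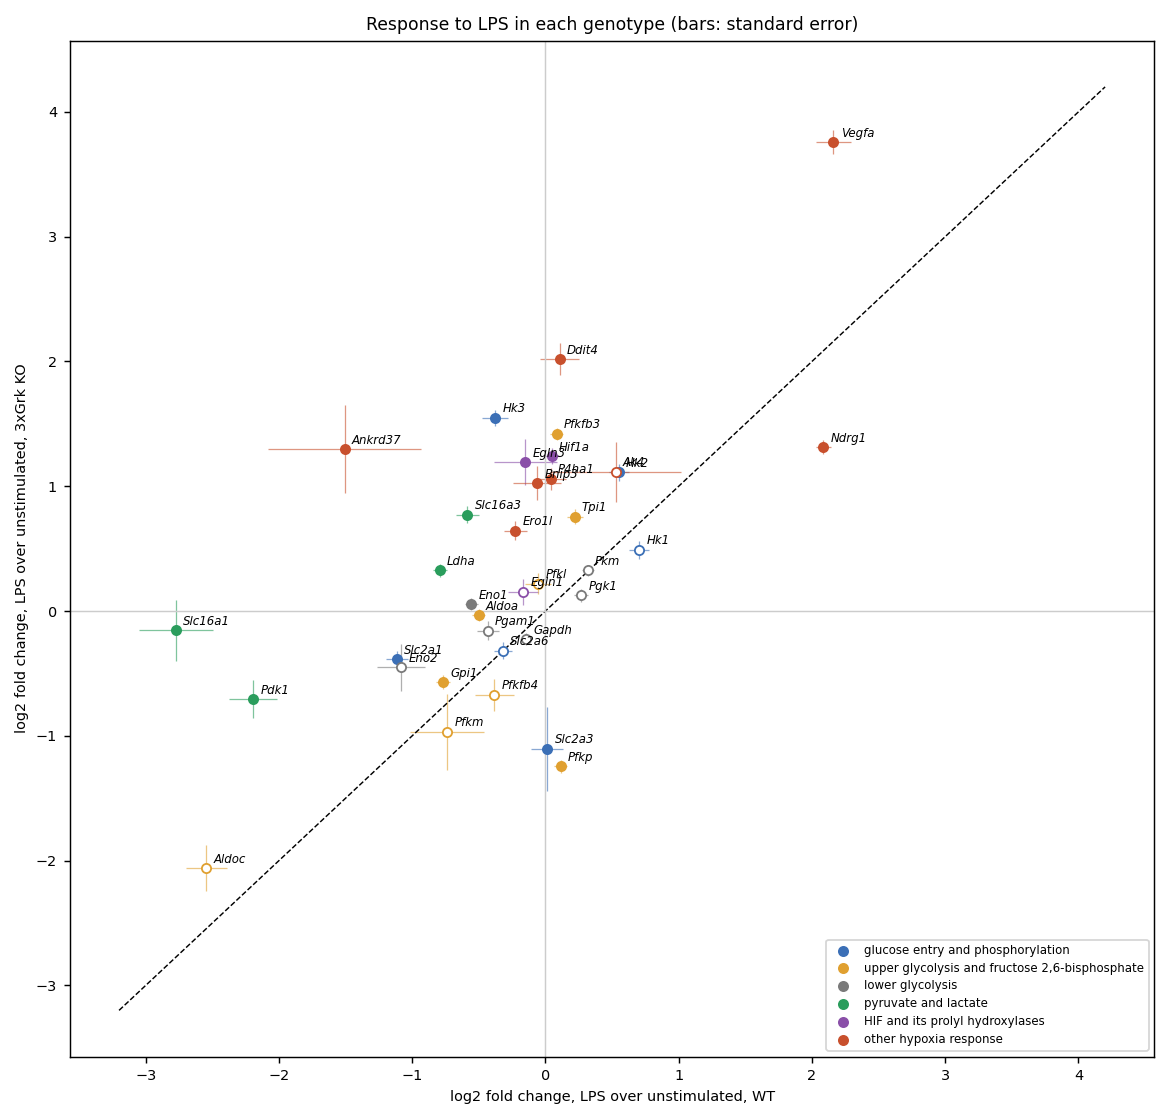
Log2 fold change with LPS in WT (x axis) against that in 3xGrk KO (y axis) for the 36 tested genes, coloured by role, with standard errors; the dashed line marks equal responses and filled circles passed the test of the difference between genotypes. Of the 23 filled circles 20 lie above the line, *Slc16a1*, *Ankrd37* and *Hk3* among the farthest, and 3 lie below it (*Slc2a3*, *Pfkp* and *Ndrg1*).

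Whether the response differed between genotypes was tested by the interaction term. Of the members 23 passed, against 32.5% of all genes. It was positive, that is more upward in 3x*Grk*-/-, for 20 members (55.6%, where 16.5% of all genes passed upwards), negative for 3 (8.33%, against 16%), and did not pass for 13. The median was 0.575, against 0.006 over all genes. Of the 13 macrophage markers, 12 had a positive and 1 a negative term, with a median of 1.906, and their part in these results was not tested. By role, all 4 pyruvate and lactate genes, 6 of the 8 other hypoxia genes, 2 of the 3 HIF genes, 4 of 9 upper and 3 of 6 glucose entry genes had a positive term, but only *Eno1* did among the 6 genes of lower glycolysis. The *Slc2a3* term (-1.12 ± 0.36) was lost without replicate 2 of either 3x*Grk*-/- group (-0.87 to -0.86, edgeR adjusted p = 0.127 to 0.142). That of *Gpi1* (0.20 ± 0.08) was lost in 7 of 8 fits that left out a library (0.11 to 0.22, edgeR adjusted p = 0.071 to 0.186), all but the one without LPS-stimulated WT replicate 2. With DESeq2 the counts were 19 and 2, where 2450 of 12912 genes were called in all. At a coefficient of variation of 0.4 for every gene the member counts were 0 and 0, with 4 and 0 at an unadjusted p under 0.05. Over all genes 72 of 12541 were called at that coefficient.

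The genes of a family were also set against each other, as CPM per kilobase of the principal mRNA. *Hk3* made up 34.5% ± 1.97 (SD, n = 2) of the hexokinase sum in unstimulated WT, 51.6% ± 1.90 in unstimulated 3x*Grk*-/-, 20.5% ± 0.871 in LPS-stimulated WT and 64.7% ± 1.14 in LPS-stimulated 3x*Grk*-/- libraries, and *Hk1* 41.5%, 29.1%, 52.2% and 17.5% in the same order. On this scale *Hk1* was the largest part in WT and *Hk3* in 3x*Grk*-/- cells. With the union of all annotated exons as the length, an alternative chosen after seeing the data, *Hk3* had 42.5%, 59.3%, 26.9% and 69.9% and *Hk1* 26.3%, 17.3%, 35.4% and 9.76%, and *Hk2* 31.2%, 23.4%, 37.8% and 20.4%. The order of the 3 genes in WT therefore depends on the length used, while *Hk3* was first in 3x*Grk*-/- either way. Among the glucose transporters listed, *Slc2a1* held 23.8% ± 0.934 and 45.1% ± 0.457 without LPS and 14.9% ± 0.0124 and 44.1% ± 2.41 with LPS in WT and 3x*Grk*-/-, and *Slc2a3* 7.44% and 0.890%, then 10.3% and 0.523%. *Slc2a6* held the largest share, 68.8% and 54.0% without and 74.9% and 55.4% with LPS. With the union of exons *Slc2a6* had 63.6% and 45.9%, then 72.0% and 47.2%, and *Slc2a1* 30.7% and 53.5%, then 19.9% and 52.4%, so that *Slc2a1* came first in 3x*Grk*-/- on that scale. *Pfkp* held 89.7% and 84.3% of the phosphofructokinase sum without LPS, and 91.3% ± 0.825 and 67.2% ± 0.820 with LPS. *Pfkl* had 8.90% and 14.3%, then 7.98% and 31.4%. With the union of exons *Pfkl* had 14.7% and 22.6%, then 13.4% and 44.4%, and *Pfkp* 81.8% and 73.9%, then 84.7% and 52.6%.

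**Figure D5:**
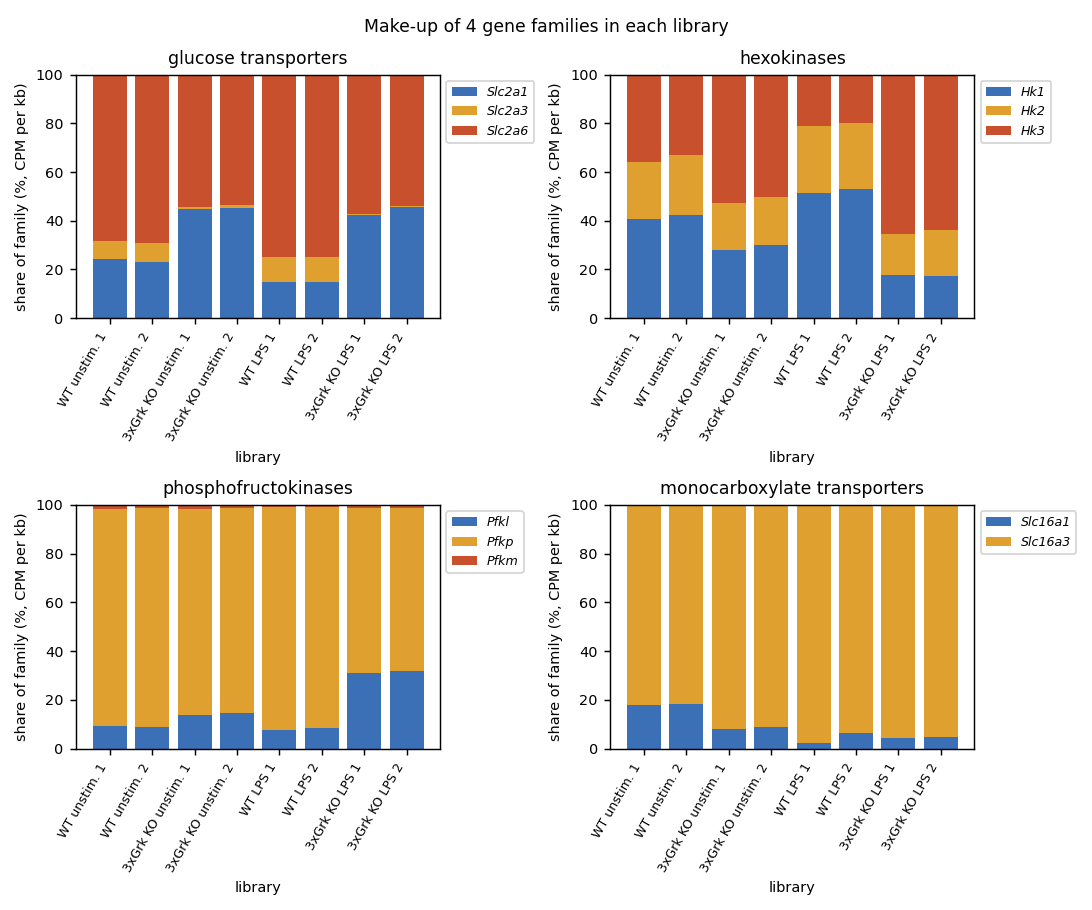
Share (%) of each gene in the sum of its family, as CPM per kilobase of the principal mRNA, in each of the 8 libraries, for the glucose transporters, hexokinases, phosphofructokinases and monocarboxylate transporters among the 37 genes. The share of *Hk3* is highest in the LPS-stimulated 3xGrk KO libraries (64.7% on average) and that of *Slc2a3* is nearly gone in all 3xGrk KO libraries.

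Other genes of these pathways, listed by name, were looked at beside the members. Of 38 further glycolysis and pyruvate genes, 24 could be tested without and 25 with LPS. In 3x*Grk*-/- cells 4 were higher and 1 lower without LPS (16.7% and 4.17%, against 22.1% and 22.7% of all genes), and 5 higher and 5 lower with LPS (20% each, against 24.7% and 24% of all genes). *Slc16a7*, which encodes MCT2, was higher under both conditions (log2 1.08 ± 0.45 and 2.05 ± 0.58, at 0.363 to 2.99 CPM). *Tigar*, whose product lowers fructose 2,6-bisphosphate, was higher without LPS (0.57 ± 0.12), and *Pgm1*, a phosphoglucomutase gene, with LPS (0.89 ± 0.11). *Pdk3*, a pyruvate dehydrogenase kinase gene, was lower without LPS (-0.61 ± 0.10), and *Fbp1*, a gluconeogenic enzyme gene, and *Pfkfb1* were lower with LPS (-2.30 ± 0.39 and -0.92 ± 0.27).

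Of 38 further HIF pathway and hypoxia genes, 29 and 30 could be tested; 10 were higher and 5 lower without LPS (34.5% and 17.2%, against 22.1% and 22.7% of all genes), and 17 higher and 4 lower with LPS (56.7% and 13.3%, against 24.7% and 24% of all genes). *Hilpda*, which encodes a lipid droplet protein induced by hypoxia, had 1.91 and 2.38 CPM in WT libraries without LPS and 4.72 and 3.40 CPM with it, and 6.58 and 6.95 CPM in 3x*Grk*-/- libraries without LPS and 99.6 and 91.0 CPM with it (log2 1.62 ± 0.30 and 4.56 ± 0.15). *Nos2*, the inducible nitric oxide synthase gene, which also answers to NF-kB, had 25.0 and 28.0 CPM against 541 and 521 CPM with LPS (log2 4.32 ± 0.08, edgeR adjusted p = 2.57e-20). *Bhlhe41*, a repressor gene, was higher without LPS (2.94 ± 0.17). *Tfrc*, the transferrin receptor gene, and *Adm*, which encodes adrenomedullin, were lower without LPS (-2.56 ± 0.06 and -1.86 ± 0.43), and *Rora* and *Cited2*, the latter encoding a HIF-1 antagonist, were lower with LPS (-1.39 ± 0.13 and -0.69 ± 0.10). *Tfrc* was at 269 and 311 CPM in unstimulated WT libraries, where cycling markers were also highest, and at 18.4 to 51.2 CPM in the other 6; the part of cycling cells in that result was not tested.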

How the data were processed

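The authors deposited read counts, whole numbers per gene ID with no normalization, in 2 tables of 4 libraries, one unstimulated and the other LPS-stimulated. The study's methods name STAR with mm10 and featureCounts, within snakePipes; the strand setting and annotation release are not given in the sources used here. Libraries were TruSeq stranded mRNA. Groups came from the labels, and 0 columns were left out. IDs were matched to GENCODE M21 (47310 of 47937 without the version, 39192 with it); 0.0468% of counts lay on unmatched IDs.

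Counts were filtered by expression, scaled by TMM and tested with edgeR 4.0.16 (quasi-likelihood, R 4.3.3, limma 3.58.1) across all genes. Each genotype comparison used its own 4 libraries, and the LPS responses and the interaction used all 8. P-values were adjusted by Benjamini-Hochberg over all genes tested. The tests were checked on simulated data with a spread between libraries near that estimated here. That check cannot show whether 2 libraries understate the biological spread. Alternatives were DESeq2 1.42.0 (size factors), library size alone, other filters, fixed coefficients of variation, a replicate block and leaving out each library. The replicate numbers did not pair the libraries. Members and lists were chosen with earlier results of these data known. Values of every library are given for the 10 members with the largest called changes between genotypes under each condition, leaving out those whose mean log2 CPM is under 3, and for members with opposite calls; of the other pathway lists, the 2 largest called changes in each direction are named. Promoters were read from RefSeq. Figures used matplotlib 3.10.9.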

Additional observations from a re-analysis of the deposited data

Results flagged for a closer look

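In 23 members the response to LPS differed between the genotypes in a test of the difference itself (the interaction of genotype and LPS, edgeR quasi-likelihood test in all 8 libraries), and these are the log2 values, positive where the response was more upward in 3x*Grk*-/- cells. Among the genes of glucose entry, the values were 0.73 for *Slc2a1*, -1.12 for *Slc2a3*, 0.56 for *Hk2* and 1.93 for *Hk3*. In upper glycolysis they were 0.20 for *Gpi1*, -1.36 for *Pfkp*, 1.34 for *Pfkfb3*, 0.47 for *Aldoa* and 0.54 for *Tpi1*, and in lower glycolysis 0.61 for *Eno1*. For pyruvate and lactate they were 1.12 for *Ldha*, 2.62 for *Slc16a1*, 1.36 for *Slc16a3* and 1.49 for *Pdk1*. *Hif1a* had 1.20 and *Egln3* 1.34. Among the other hypoxia genes, they were 1.60 for *Vegfa*, 1.09 for *Bnip3*, 0.87 for *Ero1l*, 1.02 for *P4ha1*, -0.77 for *Ndrg1*, 2.80 for *Ankrd37* and 1.91 for *Ddit4*.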

How the results depend on the processing

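With 2 libraries a group, the calls depend on the spread assumed. At a coefficient of variation of 0.1, 11 members were higher and 4 lower in 3x*Grk*-/- without LPS, and 4 rose in WT with LPS. Over all genes 2905 of 12000 and 5901 of 12541 were called, in either direction, in these 2 comparisons. At 0.4, the members called higher and lower were 0 and 1 without LPS, 5 and 1 with LPS, 2 and 3 for the WT response, 2 and 1 for the 3x*Grk*-/- response and 0 and 0 for the interaction (at an unadjusted p under 0.05, 3 and 1, 13 and 2, 2 and 3, 7 and 2, and 4 and 0). Over all genes 448 of 12000, 782 of 11830, and 1110, 850 and 72 of 12541 were called in the same order. Requiring a log2 fold change of at least 1 left 3 higher and 1 lower without LPS, 15 higher with LPS, 2 and 6 for the WT response, 12 and 3 for the 3x*Grk*-/- response, and 13 positive interactions. Library size alone left 4 that rose in WT. DESeq2 called 15 and 7, 27 and 3, 8 and 14, 17 and 9, and 19 and 2. Over all genes it called 2831 of 13412, 3663 of 13379, 5504 of 13785, 4749 of 14221 and 2450 of 12912 in the same order.

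The replicate block moved no count of members by over 1.5 times (18 and 9, 28 and 3, 7 and 18, 19 and 10, and 19 and 3). Differences between libraries of the same number correlated at -0.0709 to 0.0828 over 8863 genes, so the numbers were not taken as pairs. Leaving out 1 library gave 16 to 17 higher and 7 to 8 lower without LPS, 26 to 28 and 3 with LPS, 7 to 8 and 14 to 18 for the WT response, 18 to 20 and 8 to 12 for the 3x*Grk*-/- response and 19 to 22 and 2 to 4 for the interaction.

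Some values changed sign. Those under library size alone, other than *Slc2a6* in the interaction, moved with the median of all genes, which went to -0.086 and -0.094 between genotypes without and with LPS and to -0.23 and -0.226 in the WT and 3x*Grk*-/- responses. Of these, *Pfkfb3* (edgeR adjusted p = 0.023) and *Hif1a* (0.0309) in the WT response and *Eno1* (0.00496) in the 3x*Grk*-/- response passed with library size alone. With library size alone, between genotypes without LPS *Slc2a6* went to -0.069, *Gpi1* to -0.007, *Ankrd37* to -0.026. Between genotypes with LPS *Slc2a6* went to -0.071. In the WT response *Slc2a3* went to -0.2, *Pfkp* to -0.099, *Pfkfb3* to -0.131, *Hif1a* to -0.169, *P4ha1* to -0.176, *Ddit4* to -0.109. In the 3x*Grk*-/- response *Pgk1* went to -0.093, *Eno1* to -0.162, *Egln1* to -0.064. In the interaction *Slc2a6* went to -0.002. With at least 10 counts in every library, in the WT response *Slc2a3* went to -0.018. With DESeq2, in the interaction *Slc2a6* went to -0.003. On leaving out 1 library, other values crossed 0, and the cause was not tested. Between genotypes without LPS, *Pfkm* ran from -0.301 to 0.066, *Ankrd37* from -0.25 to 0.331, *Slc2a6* from -0.004 to 0.038, *Egln3* from -0.111 to 0.32. Between genotypes with LPS, *Slc2a6* ran from -0.034 to 0.091, *Eno2* from -0.018 to 0.5, *Hk1* from -0.087 to 0.016. In the WT response, *Slc2a3* ran from -0.04 to 0.08, *Bnip3* from -0.174 to 0.094, *P4ha1* from -0.038 to 0.097, *Pfkl* from -0.199 to 0.076, *Hif1a* from -0.055 to 0.155, *Ak4* from -0.156 to 1.059, *Egln3* from -0.397 to 0.102. In the interaction, *Slc2a6* ran from -0.061 to 0.06, *Pkm* from -0.056 to 0.071.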
